A study of Mus musculus with 4 samples.

Results

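Nuclear receptor genes were examined for peaks of H3K23pr (histone H3 propionylated at lysine 23) in mouse liver with and without hepatocyte RPN11. The 45 genes were taken by name from the family and make up 45 of the 21883 protein-coding genes that RefSeq lists on GRCm38.p6, to which mm10 corresponds. All 45 were found there. The rule used the gene names alone, although earlier results of these data were known when it was made. A peak was counted for a gene when it overlapped the gene or the 2 kb on either side. The KO library came from livers labelled as a hepatocyte-specific RPN11 knockout and the WT library from RPN11 flox/flox livers. Both were from male C57BL/6 mice, raised pathogen-free with food and water at will, and the labels give no age, Cre driver or number of animals. Liver cells other than hepatocytes keep RPN11 in the KO by this design. Each genotype had 1 immunoprecipitated (IP) library and 1 input, so every difference below is between single libraries, without a replicate check and without a test. RPN11 (gene Psmd14) is a deubiquitylating enzyme of the proteasome lid, and the series title places the work in fatty liver disease.

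Nuclear receptors are transcription factors that carry a zinc finger DNA-binding domain and, in most members, a pocket for a small lipophilic ligand. In liver they read fatty acids, oxysterols, bile acids, thyroid hormone, retinoids, glucocorticoids and foreign compounds, and switch the enzymes that handle them. Many bind DNA as dimers with RXR at repeats of the hexamer AGGTCA, and recruit coactivators with histone acyltransferase activity or corepressors with histone deacetylase activity. Histone propionylation is laid down from propionyl-CoA, an intermediate of the breakdown of some amino acids and fatty acids.

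After the peak caller's duplicate filter, the IP libraries held 15468265 fragments in KO and 13615838 in WT, and the lists held 41907 KO and 54397 WT peaks. The smallest peak in either list had 4 fragments over its summit. Mean IP fragment size was 71 bp in KO and 97 bp in WT, and its part in the counts below was not tested. The tissue is whole liver, so fewer cells that carry the mark at a site and less of the mark per cell cannot be told apart. Psmd14 itself carried 10 KO and 7 WT peaks, which does not check the deletion. Peaks also do not check the cell type. Of 5 hepatocyte marker genes 3 had a KO and 2 a WT peak, where genes of like length would give 0.678 and 1.26. Of 15 markers of other liver cells 5 had a KO and 10 a WT peak, where genes of like length would give 4.43 and 6.26.

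The receptor genes carried 118 KO peaks and 119 WT peaks over 5.48 Mb of gene and flank. No peak was counted for more than 1 receptor gene. This was 21.5 KO peaks per Mb (95% Poisson interval 17.8 to 25.8) and 21.7 WT peaks per Mb (18 to 26.0). The intervals cover counting error only. Protein-coding genes within 10% of each member's length carried on average 101 KO and 127 WT peaks over the same length. The receptor genes thus had 1.17 times the like-length mean in KO and 0.94 times in WT. The ratio of KO to WT peaks was 0.99 in the receptor genes (exact 95% interval 0.76 to 1.29) and 0.79 in genes of like length, which lies inside that interval. Without Nr6a1 the KO value was 1.06 times the like-length mean, and without Nr6a1 and Nr1h4 it was 1.01 times. At a caller q of 0.05 or smaller the densities were 6.38 KO and 1.82 WT peaks per Mb, but that threshold also kept 27.2% of all KO and 9.53% of all WT peaks.

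At least 1 peak was found in 24 of the 45 genes in KO and in 27 in WT, against 29.6% of all protein-coding genes in KO and 41.6% in WT. Receptor genes are longer than most, with a median of 49.7 kb against 17.2 kb for all protein-coding genes, and genes of like length would give 22.4 members with a KO peak and 28.2 with a WT peak. The shares are therefore near those of other genes of the same length. Peaks in both libraries were found in 20 members, where 21.6% of all genes had both and like-length genes would give 19.0. KO peaks alone were found in Nr1i2, Nr4a3, Nr2c1 and Rorb, 4 genes (8.01% of all genes; 3.40 by like length). WT peaks alone were found in 7 genes, namely Rara, Rxra, Rxrg, Thra, Vdr, Pgr and Nr4a2 (20.1% of all genes; 9.27 by like length). The other 14 had no peak in either library, against 50.4% of all genes and 13.4 by like length. Of these 14, 13 were at most 25 kb long, and the longest was Ppard at 68.7 kb.

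**Figure D1:**
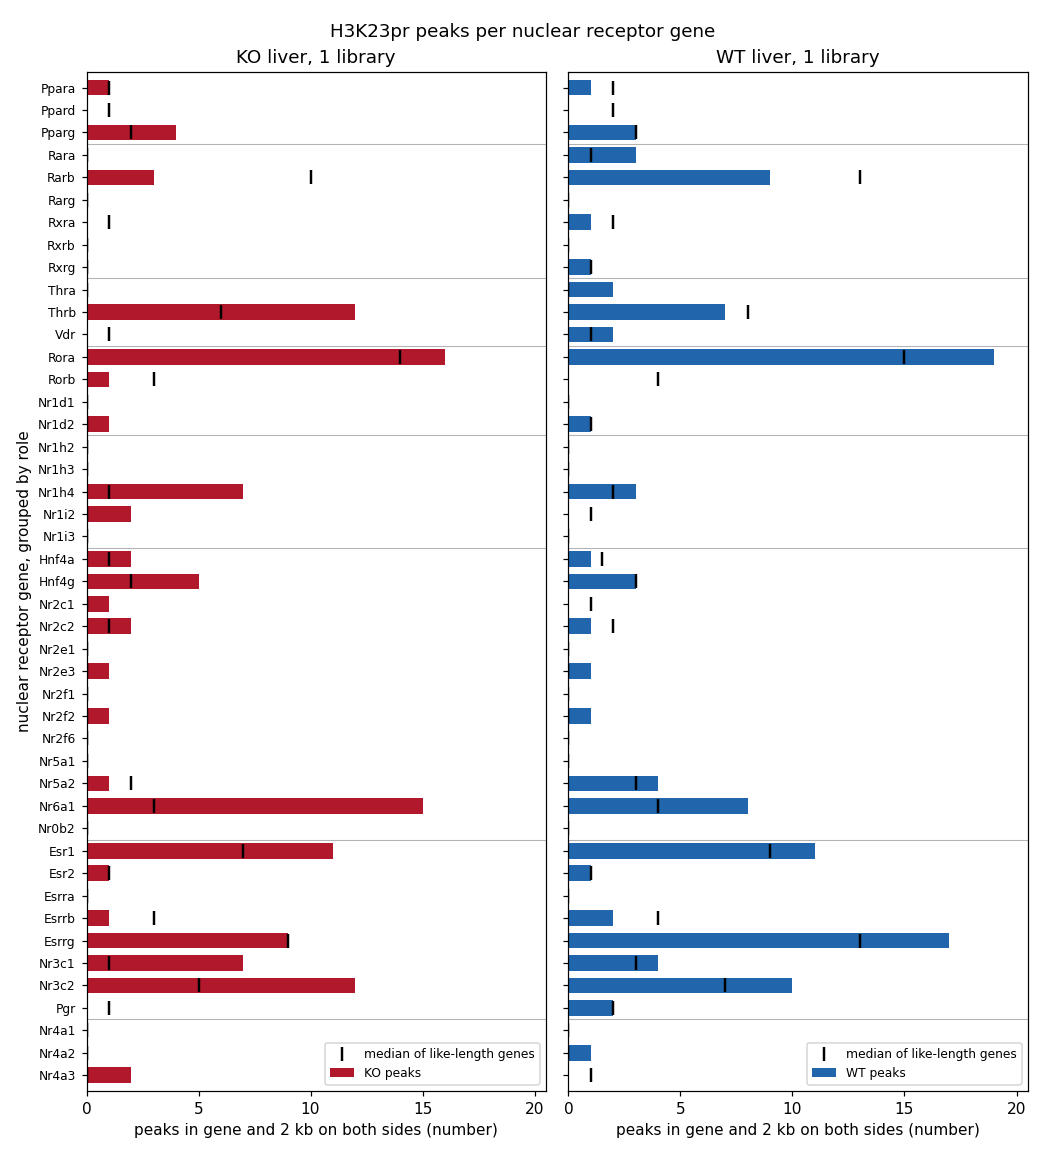
Number of H3K23pr peaks (x axis) in each of the 45 nuclear receptor genes (rows, grouped by role) in KO liver (left, red bars) and WT liver (right, blue bars), 1 library each, with no error bars. The black mark is the median number in protein-coding genes within 10% of the gene's length. In KO, Nr6a1 stands furthest beyond its mark, with 15 against 3, and Nr1h4 has 7 against 1, while Rarb stays below it in both libraries.

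Gene length ordered the members in both libraries. Across the 45 genes the Spearman correlation of length with peak number was 0.77 in KO and 0.78 in WT, as a description over genes that share a library. The 6 members over 300 kb (Rora, Rarb, Esrrg, Esr1, Thrb and Nr3c2) hold 57.2% of the examined length, and they held 63 of the 118 KO peaks (53.4%) and 73 of the 119 WT peaks (61.3%). Each gene was therefore ranked by peaks per kb among protein-coding genes within 10% of its length, of which there were 37 to 1272 per member. More peaks per kb than the like-length median were found in 18 members in KO and 17 in WT, against 24.6% of all genes in KO and 32.2% in WT. Like-length genes would give 16.3 and 18.7, so neither count stands away from them. At percentile 95 or above lay 3 members in KO, 6.67% of the family against 4.78% of all genes, and 0 in WT against 4.11% of all genes. The 3 were Nr6a1, Nr1h4 and Nr3c1. Both counts depend on the settings. In WT, Nr6a1 was at percentile 95.1 with peaks of 5 or more fragments, and Nr3c1 at 97.3 at a caller q of 0.05 or smaller. In KO, Nr6a1 was at 90.2 at a caller q of 0.05 or smaller, and Nr3c1 at 94.6 with like length taken as within 20%.

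More peaks in KO than in WT were counted in 13 members, where 14.3% of all genes showed this and like-length genes would give 9.01. More in WT than in KO were counted in 12 members, where 29.5% of all genes showed this and like-length genes would give 18.8. The family split evenly, whereas genes at large leaned toward the longer WT list. With 1 library per genotype this difference has no test.

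**Figure D2:**
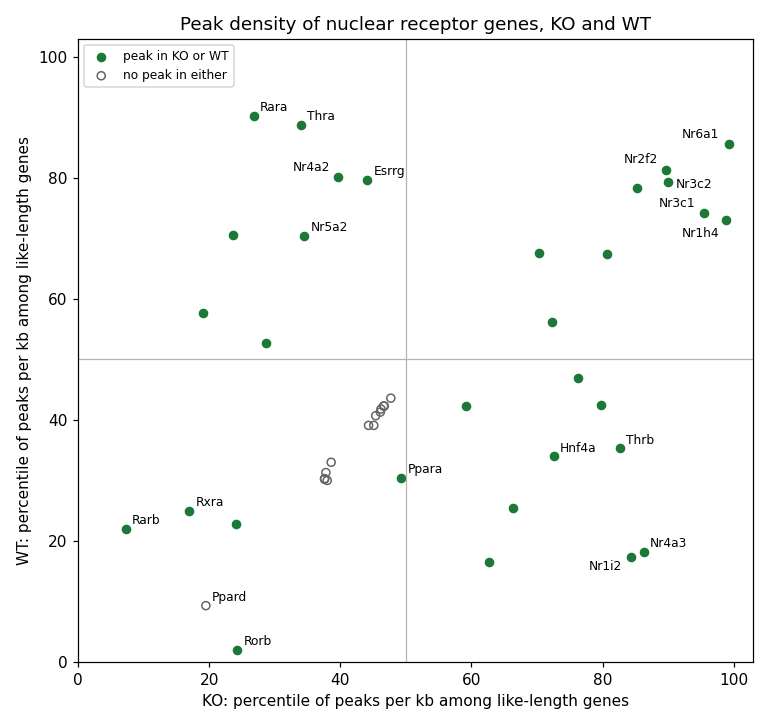
Percentile of each receptor gene's peaks per kb among protein-coding genes within 10% of its length, in KO (x axis) and WT (y axis), 1 point per gene and 1 library per axis. Filled points have a peak in at least 1 library and open points have none. Nr6a1, Nr1h4 and Nr3c1 lie above percentile 95 in KO and between 73.1 and 85.6 in WT. Rara and Thra are high in WT and have 0 KO peaks, as has the median gene of their length.

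The sterol, bile acid and xenobiotic sensors were led by Nr1h4, which encodes the bile acid receptor FXR. These 5 genes carried 9 KO and 3 WT peaks, where genes of like length carried 2.93 and 4.20. Nr1h4 (chromosome 10, 89454234 to 89533645, minus strand) held 7 of the KO peaks (95% Poisson interval 2.81 to 14.4) and all 3 WT peaks (0.619 to 8.77), and these intervals overlap. Its peak density was 83.9 per Mb in KO (percentile 98.8 of 646 genes of like length) and 36.0 per Mb in WT (percentile 73.1). In the 100 kb on each side there were 6 KO and 6 WT peaks, a density of 30.0 per Mb in both. Of the 21883 protein-coding genes, of all lengths, 73 had at least 7 KO peaks with at most 3 WT peaks, cutoffs taken from Nr1h4 itself. Counting peaks of 5 or more fragments left 5 in KO (percentile 98.3) and 3 in WT (85.4).

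The strongest peak in any receptor gene was a KO peak inside Nr1h4 at chr10:89511621-89511746. It had 12 IP fragments over the summit, a caller fold of 8.29 over a background of 0.568 fragments, and caller rank 76 of 41907. A KO peak of 12 or more fragments was found in or near 52 protein-coding genes, 0.238% of them. The site lies 21962 bp inside the 5′ limit of the RefSeq gene, but 5025 bp upstream of its start site in the promoter table, because the gene's outer limits extend further. Exons were not given in the table used, so exonic and intronic sites were not told apart. The strongest WT peak in Nr1h4 lay elsewhere, at chr10:89519887-89520070, with 8 fragments and a fold of 5.07, and the WT peak nearest to the strong KO site was 4879 bp from it by midpoints. The other WT peaks had 5 and 6 fragments, and the other KO peaks 4 to 6. The closest KO and WT peaks had 6 fragments each, at chr10:89516996-89517256 in KO and chr10:89516502-89516623 in WT, and did not overlap. The promoter listed for Nr1h4 in the RefSeq table (chr10:89506609-89506908, minus strand, GRCm38.p6, 250 bases before to 50 after the start site) is shown because this gene carries the family's strongest peak. Capitals mark the AGGTCA hexamer, here on the opposite strand:
Nr1h4: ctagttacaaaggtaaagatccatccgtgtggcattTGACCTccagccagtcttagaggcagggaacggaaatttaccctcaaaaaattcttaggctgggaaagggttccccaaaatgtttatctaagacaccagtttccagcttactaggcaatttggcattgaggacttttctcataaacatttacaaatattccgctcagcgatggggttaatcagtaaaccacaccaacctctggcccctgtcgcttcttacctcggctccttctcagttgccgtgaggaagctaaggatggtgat
No KO or WT peak overlapped these 300 bases.

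Nr1i2, which encodes the xenobiotic receptor PXR, had 2 KO peaks and 0 WT peaks. The KO peaks had 5 and 6 fragments, and the higher lay 1868 bp upstream of the start site at chr16:38296634-38296751, within 2 kb of the neighbouring gene Maats1 as well. The percentile of Nr1i2 was 84.3 in KO and 17.4 in WT. The 100 kb on each side of Nr1i2 held 10 KO and 5 WT peaks. In both libraries the density there was higher than in the gene with its 2 kb flanks. The remaining sensors had no peak in either library. They were Nr1h2 and Nr1h3, which encode the oxysterol receptors LXRβ and LXRα, and Nr1i3, which encodes the xenobiotic receptor CAR. All are short, from 4.35 to 18.8 kb, and the median gene of their length had 0 peaks in both libraries.

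The fatty acid receptors of the PPAR group carried 5 KO and 4 WT peaks, against 5.36 and 7.33 in genes of like length, so the KO count lay near those genes and the WT count below them. Ppara, which encodes the main fasting regulator of hepatic fatty acid oxidation, had 1 peak of 5 fragments in KO and 1 peak of 5 fragments in WT. The KO peak lay at chr15:85753622-85753734 and the WT peak at chr15:85781542-85781769, both inside the gene. Pparg, the adipogenic member, had 4 KO and 3 WT peaks. Its KO peaks had 4 to 6 fragments and its WT peaks 4 to 6, all at different sites inside the gene. Ppard had no peak in either library, at percentile 19.5 in KO and 9.3 in WT.

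The retinoid receptors and their RXR partners carried few KO peaks, 3 against 15.6 in genes of like length, and 14 WT peaks against 18.8. All 3 KO peaks were in Rarb, a retinoic acid receptor gene of 651 kb, which had 9 WT peaks. The median gene of that length had 10 KO and 13 WT peaks, and Rarb was at percentile 7.3 in KO and 22.0 in WT of 41 genes. Rara, the retinoic acid receptor gene on chromosome 11, had 0 KO peaks and 3 WT peaks, at percentiles 26.8 and 90.3. The median gene of the length of Rara also had 0 KO peaks, and 1 WT peak. The WT peaks of Rara had 8, 6 and 6 fragments, the highest at chr11:98935565-98935776, 2026 bp upstream of the nearest listed start site and also within 2 kb of Gm46294. In all, 496 protein-coding genes (2.27%) had at least 3 WT peaks and no KO peak. Rxra, the main RXR gene of liver, had 0 KO peaks and 1 WT peak of 5 fragments, and Rxrg had 0 KO and 1 WT peak of 4 fragments. Rarg and Rxrb had none.

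Among the thyroid hormone and vitamin D receptors, Thrb had 12 KO and 7 WT peaks, at percentiles 82.7 and 35.3. It encodes the thyroid hormone receptor that predominates in liver. Its KO peaks had 4 to 6 fragments and its WT peaks 4 to 6. Thra had 0 KO and 2 WT peaks. The higher of these, at chr11:98747301-98747486, had 9 fragments and a fold of 4.90, the most fragments of any WT peak in the family. A WT peak of 9 or more fragments was found in or near 1.76% of protein-coding genes. Vdr, the vitamin D receptor gene, had 0 KO and 2 WT peaks of 6 fragments each.

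The clock receptors followed their length, with 18 KO and 20 WT peaks against 17.8 and 22.7. Rora, an activator of clock genes and the longest member at 735 kb, had 16 KO and 19 WT peaks, at percentiles 70.3 and 67.6 of 37 genes. Rorb, at 181 kb, had 1 KO and 0 WT peaks where the like-length medians were 3 and 4, and its percentiles of 24.3 and 2.0 include the lowest WT value in the family. The clock repressor gene Nr1d2 had 1 peak in each, of 6 fragments in KO and 5 in WT, and its partner Nr1d1 had none.

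HNF4, NR2, NR5 and related factors carried 28 KO and 19 WT peaks, against 14.5 and 19.7 in genes of like length. Nr6a1 alone held 15 of the KO peaks (8.4 to 24.7) and 8 of the WT peaks (3.45 to 15.8). Nr6a1 (chromosome 2, 38723369 to 38926461, minus strand) encodes the germ cell nuclear factor GCNF, an orphan receptor known for repressing pluripotency genes in development. It was at percentile 99.2 in KO and 85.6 in WT of 264 genes. Of the 21883 protein-coding genes, of all lengths, 15 had at least 15 KO with at most 8 WT peaks, cutoffs taken from Nr6a1 itself. Its 15 KO peaks were low, with 4 to 7 fragments, and its 8 WT peaks likewise had 4 to 7. KO and WT peaks were interleaved along the gene, with different densest stretches. Between 51.0 and 101 kb from the 5′ end lay 10 KO peaks and 1 WT peak, and between 126 and 160 kb lay 1 KO peak and 5 WT peaks. These stretches were picked after the values were seen, as the densest of each library. The noncoding genes Nr6a1os, Mir181a-2 and Mir181b-2 lie within the limits of Nr6a1, so a peak there cannot be given to 1 of these genes alone. The 100 kb on each side held 5 KO and 0 WT peaks, and Nr5a1, the steroidogenic factor gene next to it, had none. At a caller q of 0.05 or smaller Nr6a1 kept 3 KO peaks and 1 WT peak.

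Hnf4a, the hepatocyte master regulator of the family, had 2 KO peaks and 1 WT peak. Both KO peaks had 6 fragments. The KO peak 512 bp beyond the 3′ limit of the gene, at chr2:163573382-163573456, had a fold of only 2.94 because its background of 1.378 fragments was more than 2 times the genome-wide KO level of 0.568. Hnf4g had 5 KO peaks of 4 or 5 fragments and 3 WT peaks of 5 fragments each. Nr5a2, which encodes LRH-1, a regulator of bile acid synthesis, had 1 KO peak of 6 fragments and 4 WT peaks of 4 or 5 fragments, at percentiles 34.5 and 70.4. Nr2c2 had 2 KO and 1 WT peaks, Nr2e3 1 and 1, and Nr2c1 1 and 0. Nr2f2, which encodes the orphan receptor COUP-TFII, had 1 and 1, at percentiles 89.6 and 81.4 among genes of its 14.8 kb. The 100 kb on each side of Nr2f2 held 10 KO and 5 WT peaks. The bile acid repressor gene Nr0b2 (SHP) had none in either library, and neither had Nr2e1, Nr2f1, Nr2f6 and Nr5a1.

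The steroid and estrogen-related receptor genes carried 41 KO and 47 WT peaks, against 33.9 and 41.2 in genes of like length. Nr3c1, the glucocorticoid receptor gene (chromosome 18, 39410545 to 39519421), had 7 KO and 4 WT peaks, at percentiles 95.5 and 74.2 of 559 genes. The KO peaks had 8, 6, 6, 6, 6, 4 and 4 fragments and the WT peaks 8, 7, 6 and 4. At a caller q of 0.05 or smaller 4 KO and 2 WT peaks remained, at percentiles 98.7 and 97.3, so at that threshold Nr3c1 was high in both libraries. The 100 kb on each side of Nr3c1 held 7 KO and 5 WT peaks. In both libraries the density there was lower than in the gene with its 2 kb flanks. Nr3c2, the mineralocorticoid receptor gene, had 12 KO and 10 WT peaks (percentiles 90.0 and 79.3). Esr1, the estrogen receptor α gene, had 11 KO and 11 WT peaks. Esrrg had 9 KO and 17 WT peaks, at percentiles 44.1 and 79.7, with a peak of 8 fragments in each library at different sites. Esr2 had 1 KO and 1 WT peak, Esrrb 1 KO and 2 WT peaks, Pgr 0 KO and 2 WT peaks, and Esrra none. Of the immediate early NR4A genes, Nr4a3 had 2 KO and 0 WT peaks, Nr4a2 0 KO and 1 WT peak of 6 fragments (percentiles 39.6 and 80.2), and Nr4a1 none.

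**Figure D3:**
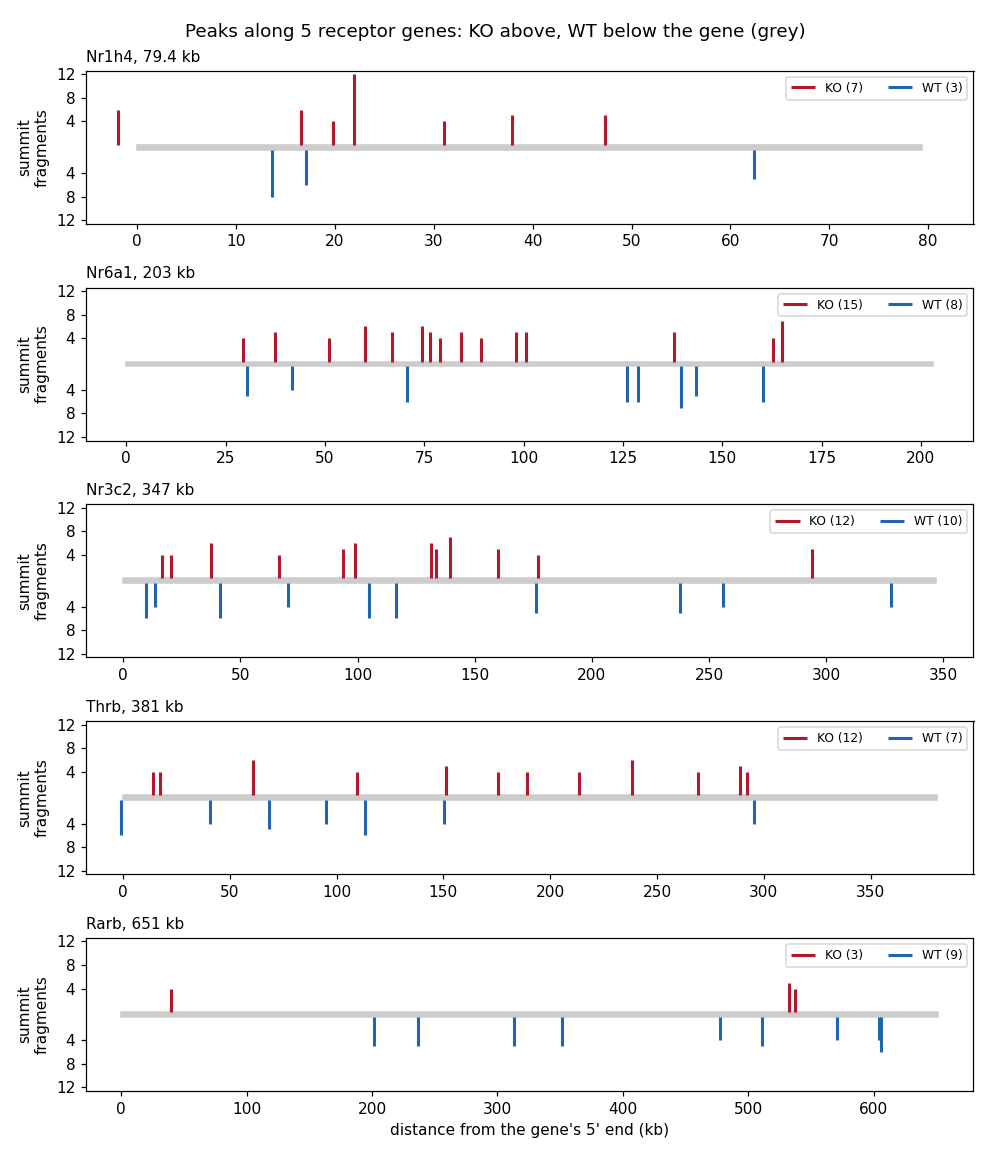
Peaks along 5 receptor genes, by distance from the 5′ limit of the gene in kb (x axis), with KO peaks above and WT peaks below the grey gene. Line height is the number of IP fragments over the summit, and the legend gives the number of peaks in each library (1 library per genotype). The 12-fragment KO peak of Nr1h4 stands 21962 bp from the 5′ limit, and 10 of the 15 KO peaks of Nr6a1 lie between 51.0 and 101 kb.

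By share of the examined length, peaks were not gathered at gene ends. Of the receptor genes' peaks, 8 in KO (6.78%) and 8 in WT (6.72%) were centred at most 2 kb from a gene end, and these stretches make up 6.55% of the examined length. They belonged to 8 members in KO (17.8%) and 7 in WT (15.6%), against 7.57% of all genes in KO and 13.6% in WT. Like-length genes would give 3.81 members in KO and 6.74 in WT, so the KO count of members lay above them and the WT count near them. With 1 kb in place of 2 kb, 4 members remained in KO and 0 in WT. The 8 KO genes were Hnf4a, Nr2c2, Nr2f2, Rora, Esr1, Nr1h4, Nr1i2 and Rorb, with 4 to 7 fragments. The 7 WT genes were Nr5a2 (at both ends), Nr2f2, Nr2e3, Esr1, Rara, Esrrb and Thrb, with 4 to 6 fragments. Inside genes of known strand, 65 KO peaks lay nearer the 5′ limit and 36 nearer the 3′ limit, so 64.4% were on the 5′ side, against 49 and 54 WT peaks (47.6%). Over all protein-coding genes with a strand the 5′ share was 52.4% in KO and 51.4% in WT. Nr6a1 had 12 KO peaks on the 5′ side and 3 on the 3′ side, and Nr3c2 had 10 and 2. The KO share was 61.6% without Nr6a1 and 61.8% without Nr3c2. A share without both genes at once was not computed.

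Only Nr2f2 and Esr1 had a peak near a gene end in both libraries, 2 genes where 1.38% of all genes and 0.714 of 45 by like length had this. In both genes the peaks were on the side of the start site. At Nr2f2 the KO peak (chr7:70367189-70367267, 7 fragments, fold 3.84) lay 482 bp upstream of the start site and the WT peak (chr7:70367851-70367993, 5 fragments, fold 3.48) 1176 bp upstream, with 583 bp between them. At Esr1 the KO peak (chr10:4613499-4613707, 6 fragments, fold 3.96) lay 1614 bp downstream and the WT peak (chr10:4613085-4613302, 5 fragments, fold 3.55) 1204 bp downstream of the start site, with 196 bp between them. Their RefSeq promoters (GRCm38.p6), at chr7:70366697-70366996 on the minus strand and chr10:4611739-4612038 on the plus strand, are shown as the sequence these peaks lay closest to, and neither holds the hexamer:
Nr2f2: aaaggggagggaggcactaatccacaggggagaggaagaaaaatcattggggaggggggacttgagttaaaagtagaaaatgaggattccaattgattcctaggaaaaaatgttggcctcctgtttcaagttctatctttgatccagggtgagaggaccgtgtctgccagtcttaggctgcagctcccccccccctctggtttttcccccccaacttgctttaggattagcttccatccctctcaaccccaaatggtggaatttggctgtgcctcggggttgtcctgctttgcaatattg
Esr1: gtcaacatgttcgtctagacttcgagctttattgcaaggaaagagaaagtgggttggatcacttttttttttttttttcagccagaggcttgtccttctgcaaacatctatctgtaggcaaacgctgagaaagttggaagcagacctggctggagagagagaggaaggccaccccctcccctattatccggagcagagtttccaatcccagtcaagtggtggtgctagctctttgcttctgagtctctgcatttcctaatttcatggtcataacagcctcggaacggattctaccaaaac
RefSeq promoters were listed for 41 of the 45 genes, 62 in all. A KO peak overlapped 0 of the 62 and a WT peak 0 of the 62, where 0.193% of all 21262 promoters of protein-coding genes met a KO peak and 0.442% a WT peak. At those rates fewer than 1 of 62 would meet a peak. The hexamer AGGTCA, searched on both strands, was in 11 of the 62 (17.7%) and in 14.7% of all promoters of the same 300 bases. This describes letters in the window and not binding.

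Peaks in receptor genes were as low as those elsewhere. The median summit held 5 fragments in KO and 5 in WT, as in both whole lists. Peaks of 8 or more fragments numbered 4 in KO (3.39%, against 3.48% of the KO list) and 5 in WT (4.20%, against 4.27% of the WT list). They lay in Nr1h4 (12 fragments), Esrrg, Rora and Nr3c1 (8 each) in KO, and in Thra (9), Esrrg, Nr1h4, Rara and Nr3c1 (8 each) in WT. Esrrg, Nr1h4 and Nr3c1 were in both sets, with different sites. The smallest peaks, of 4 fragments, made up 36.4% in KO and 31.9% in WT, against 42.6% and 37.5% of the lists. The caller's median fold was 3.83 in KO and 3.55 in WT, against 3.83 and 3.52 over the lists. These folds, as the caller's q, are the authors' values for each peak. Of the receptor genes' peaks, 35 in KO (29.7%) and 10 in WT (8.4%) had a caller q of 0.05 or smaller. Background over 2 times the genome-wide level was found at 2 KO and 3 WT peaks.

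**Figure D4:**
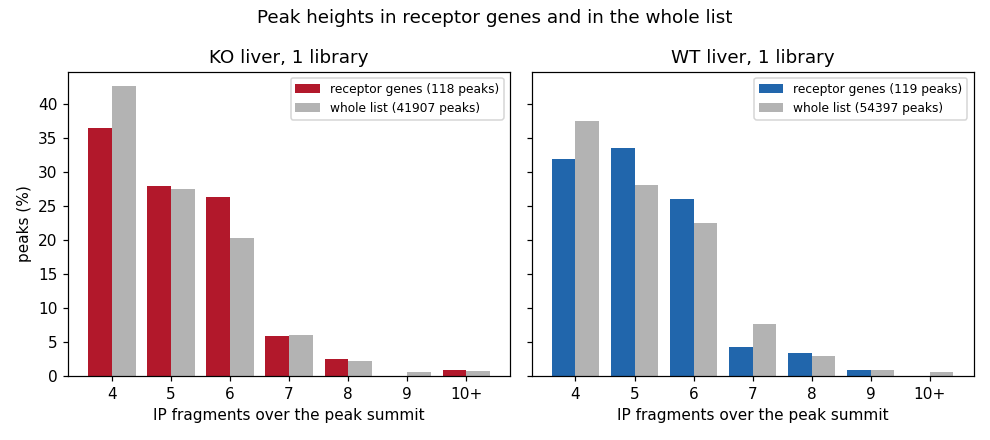
Share of peaks in percent (y axis) by IP fragments over the summit (x axis) for receptor genes (coloured) and the whole list (grey), KO left and WT right, 1 library each. Peaks of 4 fragments are 36.4% against 42.6% in KO and 31.9% against 37.5% in WT, and few peaks in either set reach 8.

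Few peaks of the 2 genotypes coincide anywhere in these lists. In the receptor genes none of the 118 KO and 119 WT peaks overlapped one in the other library (0 sites), where 1.10% of the KO list and 0.853% of the WT list did so. At these rates about 1 such peak would fall among those of the family, so the count of 0 is near the background. Midpoints within 500 bp of a peak of the other library were found for 2 KO and 2 WT peaks, against 3.21% of the KO list and 2.44% of the WT list. These were the Esr1 pair described above and a pair inside Rora. The Rora peaks had 8 fragments in KO (chr9:68760358-68760538, fold 5.67) and 4 in WT (chr9:68760614-68760738, fold 2.96), with 75 bp between them, about 107 kb from the 5′ limit. The closest Nr1h4 pair was 564 bp apart by midpoints and the Nr2f2 pair 694 bp.

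Coregulators of nuclear receptors were examined beside the family. Of 20 coregulator genes, 13 had a KO and 15 a WT peak, where genes of like length would give 12.8 and 15.8. They carried 62 KO and 74 WT peaks against 50.7 and 64.1. Ep300, which encodes the histone acyltransferase p300, had 0 KO peaks (0 to 3.69) and 9 WT peaks (4.12 to 17.1). It was at percentile 20.6 in KO and 100 in WT of genes of like length, and 9 of the 21883 protein-coding genes had at least 9 WT peaks and no KO peak. Ncoa6 had 3 KO and 8 WT peaks, and Kat2b 7 KO and 4 WT peaks. The corepressor gene Ncor1 had 8 KO and 6 WT peaks. The corepressor deacetylase gene Hdac3 had none. These coregulators were singled out after their values were seen.

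Of 73 target genes of the receptors, 25 had a KO and 34 a WT peak, and like-length genes would give 23.1 and 33.1. Both numbers lay near those of like-length genes. The single lists hold 6 to 16 genes and lay on both sides of their like-length numbers, some of them close to it, without a test. PPAR targets with a peak numbered 7 in KO and 7 in WT of 16, against 3.85 and 5.96 by like length. PXR and CAR targets numbered 5 and 5 of 9, against 2.90 and 4.38. FXR targets numbered 3 in KO and 4 in WT of 9, against 2.12 and 3.25. Thyroid hormone receptor targets numbered 3 in KO and 2 in WT of 6, against 2.29 and 3.11. The other 4 lists were below their like-length numbers in KO. LXR targets numbered 1 in KO and 4 in WT of 10, against 3.27 and 4.76. Retinoic acid and vitamin D receptor targets numbered 0 in KO and 2 in WT of 6, against 1.89 and 2.78. Glucocorticoid receptor targets numbered 3 in KO and 4 in WT of 10, against 3.43 and 4.66. REV-ERB and ROR targets numbered 3 in KO and 6 in WT of 7, against 3.30 and 4.21, so this list was above its like-length number in WT. The thyroid hormone target Me1, which encodes malic enzyme, had 6 KO peaks (2.2 to 13.1) and 0 WT peaks (0 to 3.69), and 20 protein-coding genes had at least 6 KO peaks and no WT peak. Among FXR targets, the bile salt export pump gene Abcb11 had 6 KO and 3 WT peaks. Abcb4, a phospholipid exporter gene of the bile canaliculus, had 2 KO and 5 WT peaks, with summits of up to 11 fragments in KO and 7 in WT. These targets too were named after their values were seen.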

How the data were processed

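H3K23pr was mapped in mouse liver by chromatin immunoprecipitation sequencing (ChIP-seq) in 2 genotypes, with 1 IP and 1 input library each. Groups were taken from the titles. The submitters' processing notes name cutadapt 1.9.3, Bowtie2 2.2.4 and the mm10 build. Peaks were called by the authors library by library, IP against matching input, with paired-end MACS2 2.1.1.20160309 at a p cutoff of 0.001, per the file headers. The name of the aligned files says that duplicates had been removed before that, which was not checked. The caller allowed 2 fragments per position. Its filter still cut the IP fragments from 17764217 to 15468265 in KO and from 15588633 to 13615838 in WT. The deposited pileup is a signal, the fragments over the summit. The deposited fold is a ratio to local background with a pseudocount added, and the deposited −log10 p and q values, like the deposited peak length, are the caller's own. The background of a peak was recomputed from its pileup and fold.

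Gene limits came from RefSeq (GRCm38.p6), and strands and start sites from its promoter table. Peaks within a gene and 2 kb on both sides were counted. Like length means protein-coding genes within 10% of the length, and percentiles count ties at the midpoint. "By like length" means the sum over members of the share, or mean density, among such genes. Intervals are exact 95% Poisson or binomial (Clopper-Pearson) and cover counting error only. Where the text counts protein-coding genes that reach a named gene's peak numbers or heights, the cutoffs came from that gene. Those counts are over genes of all lengths and are not matched for length. Members and lists were chosen with earlier results of these data known. Values are given for the main liver receptors, members with close KO and WT peaks, with a peak near a gene end, among the 5 highest percentiles of a library or with the highest summits, and the rest by count. The settings tried changed the window, peak threshold, list length, like-length range and member set. Python 3.11.15, pandas 2.3.3, numpy 2.4.6 and scipy 1.17.1 were used, and the counting was tested on simulated peaks.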

Additional observations from a re-analysis of the deposited data

How the results depend on the processing

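No paired analysis was possible because each genotype had 1 IP library. Of the values that answer a comparison, 33 stayed close to those reported and 19 moved. A count was taken as close within a fixed ratio of the reported one, and a density inside the reported 95% interval. The rule is wide: 14 members above the like-length median in KO at a caller q of 0.05 or smaller, against 18, counted as close. At a caller q of 0.05 or smaller, 14 members had a KO and 8 a WT peak, densities were 6.38 and 1.82 per Mb, 8 members exceeded the like-length median in WT, and 2 had a KO and 0 a WT peak near a gene end. At 5 or more fragments densities were 13.7 in KO and 14.8 in WT. With members of 100 kb or shorter alone, 11 had a KO and 15 a WT peak, densities were 16.6 and 17.4 per Mb, and 10 exceeded the like-length median in KO and 10 in WT. With equal list lengths the WT density was 17.9 per Mb, below the KO value of 21.5. The cut in the WT list fell among peaks with tied caller p, which were kept in order of chromosome name and position. The WT values with equal list lengths therefore depend in part on that order, and this part was not tested. Within 1 kb of a gene end there were 4 KO and 0 WT members. By midpoints within 500 bp, 2 sites were shared. These settings count fewer peaks, genes or bases, or match more widely, and what moved each value was not tested. The members' peaks over the like-length mean, a measure added after seeing the data, ran from 0.98 to 1.29 in KO and from 0.73 to 1.01 in WT, with the low end of both for members of 100 kb or shorter. The KO percentile of Nr1h4 stayed between 97.7 and 98.8, that of Nr6a1 between 90.2 and 99.6 and that of Nr3c1 between 94.6 and 98.7 in the settings tried. In WT they ran from 70.0 to 88.1 for Nr1h4, from 81.1 to 95.1 for Nr6a1 and from 70.8 to 97.3 for Nr3c1, so Nr6a1 with 5 or more fragments and Nr3c1 at a caller q of 0.05 or smaller passed percentile 95 in WT too. Most peaks rest on 4 to 7 fragments, and the part of depth was not tested.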
